A study of Saccharomyces cerevisiae with 6 samples.

Results

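Making a ribosome starts in the nucleolus, where RNA polymerase I transcribes the large ribosomal RNA precursor and a long series of assembly factors folds, cuts and modifies it. The 58 genes described here encode such factors and 5 subunits of RNA polymerase I, and all 58 had a probe set on the array, out of 5449 budding yeast genes tested. They were chosen by name: 9 act on both ribosomal subunits or on ribosomal RNA modification in general, 18 on the small subunit, 26 on the large subunit and 5 are polymerase I subunits. Each gene had a single probe set.

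In yeast these genes form a regulon that follows the growth signal of the TORC1 and protein kinase A pathways. The repressors Dot6 and Tod6 and the factors Sfp1 and Stb3 act on their promoters, and poor nutrition lowers their transcription together with that of ribosomal protein genes. The assembly factors and the ribosomal proteins are nevertheless controlled through different promoter elements, so the 2 gene sets can move apart.

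Messenger RNA was measured on 6 one-colour arrays, 3 for a wild-type diploid of the filamentous Σ1278b background and 3 for a strain of that background labelled as a PUN1 mutant and described as a homozygous diploid deletion. PUN1 encodes a plasma membrane protein. Both strains had grown in rich YPD medium and then spent 6 h in SLAD, a medium poor in nitrogen to which amino acids were added for auxotrophies that the labels do not list. Polyadenylated RNA was purified before labelling. How many transformants the deletion strain stands for is not given in the labels.

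PUN1 read 13.35, 13.50 and 13.55 (log2) on the wild-type arrays and 8.33, 4.83 and 4.93 on the deletion arrays in order of their number, so that deletion replicate 1 stood above the background of 5.67 to 5.74 and the others below it. The deletion arrays also read 13.75 to 13.81 for MF(ALPHA)1, the alpha-factor gene, against 5.755 to 5.905 on the wild-type arrays, and HMRA1, the gene of the a1 repressor, read 3.985 to 4.43 against 8.82 to 9.42. The deletion arrays thus went against their diploid a/alpha description, and the loss of PUN1 cannot be told apart from this difference of mating type. These values do not give the ploidy of either strain. Arrays correlated at 0.996 to 0.999 within a group and at 0.976 to 0.981 between groups, a description across probe sets, which share each array. With 3 arrays per group, every value below has limited precision. On these bulk arrays, fewer cells with a transcript and less transcript per cell cannot be told apart.

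Every member lay above background on every array. Their values ran from 10.10 to 14.28 (log2), against the background that 1746 probe sets of another yeast set. The highest means belonged to NOP58 and NOP1, parts of the box C/D particles that guide methylation of ribosomal RNA, and the lowest to SSF1 and MAK16, both large subunit assembly factors. NOP58 read 14.28, 14.15 and 14.17 on the wild-type arrays, by replicate number, and 14.24, 14.07 and 14.15 on the deletion arrays. NOP1 read 13.78 to 13.89 and 13.72 to 13.85, so both genes overlapped between the groups. Probe sets differ in affinity, so these values do not rank the transcripts.

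Between the strains the 58 genes differed little. In a limma fit on the 2 groups alone, 1 of them, UTP15, fell in the deletion arrays, 0 rose and 57 did not pass (threshold 0.05 on the adjusted p). With the replicate number as a block, a fit that compares same-numbered arrays, 9 passed, 8 lower and 1 higher (15.5%), against 28.4% of all tested probe sets, 11.0% lower and 17.4% higher. Without the block there were 7 members at an unadjusted p under 0.05 in limma, 6 lower and 1 higher. By the same measure 39.0% of all tested probe sets were under 0.05. Of all 5498 probe sets tested, 25.6% passed without the block, 15.8% higher and 9.82% lower, against 1.72% of the members. In both fits the share of members that passed in either direction was under that of all tested probe sets. With the block the share called lower was 13.8% of the members and 11.0% of all tested probe sets. The median difference of the members, deletion minus wild type, was -0.07 (log2), a ratio of 0.953, against 0.02 over all tested probe sets. The 58 differences ran from -0.305 to 0.16, 45 below 0 and 13 above, where 45.2% of all tested probe sets were below 0. The median shrank to -0.013 without wild-type replicate 1 and to -0.012 without deletion replicate 2.

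The intervals of the fit without the block bound the differences between the strains. The 95% interval of the difference lay within 0.5 (log2) of 0 on both sides for 55 of the 58 members, compared with 85.6% of all tested probe sets. The exceptions were UTP22, NOP14 and SSF1, whose intervals reached down to -0.57, -0.51 and -0.52. The median distance from a difference to the end of its interval was 0.21 for the members and 0.13 over all tested probe sets. With the block the median SE of a member's difference was 0.04, compared with 0.09 without it. No member differed by 0.5 or more, as 6.68% of tested probe sets did, and 3 members differed by at least 0.25, as 20.1% of tested probe sets did.

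**Figure D1:**
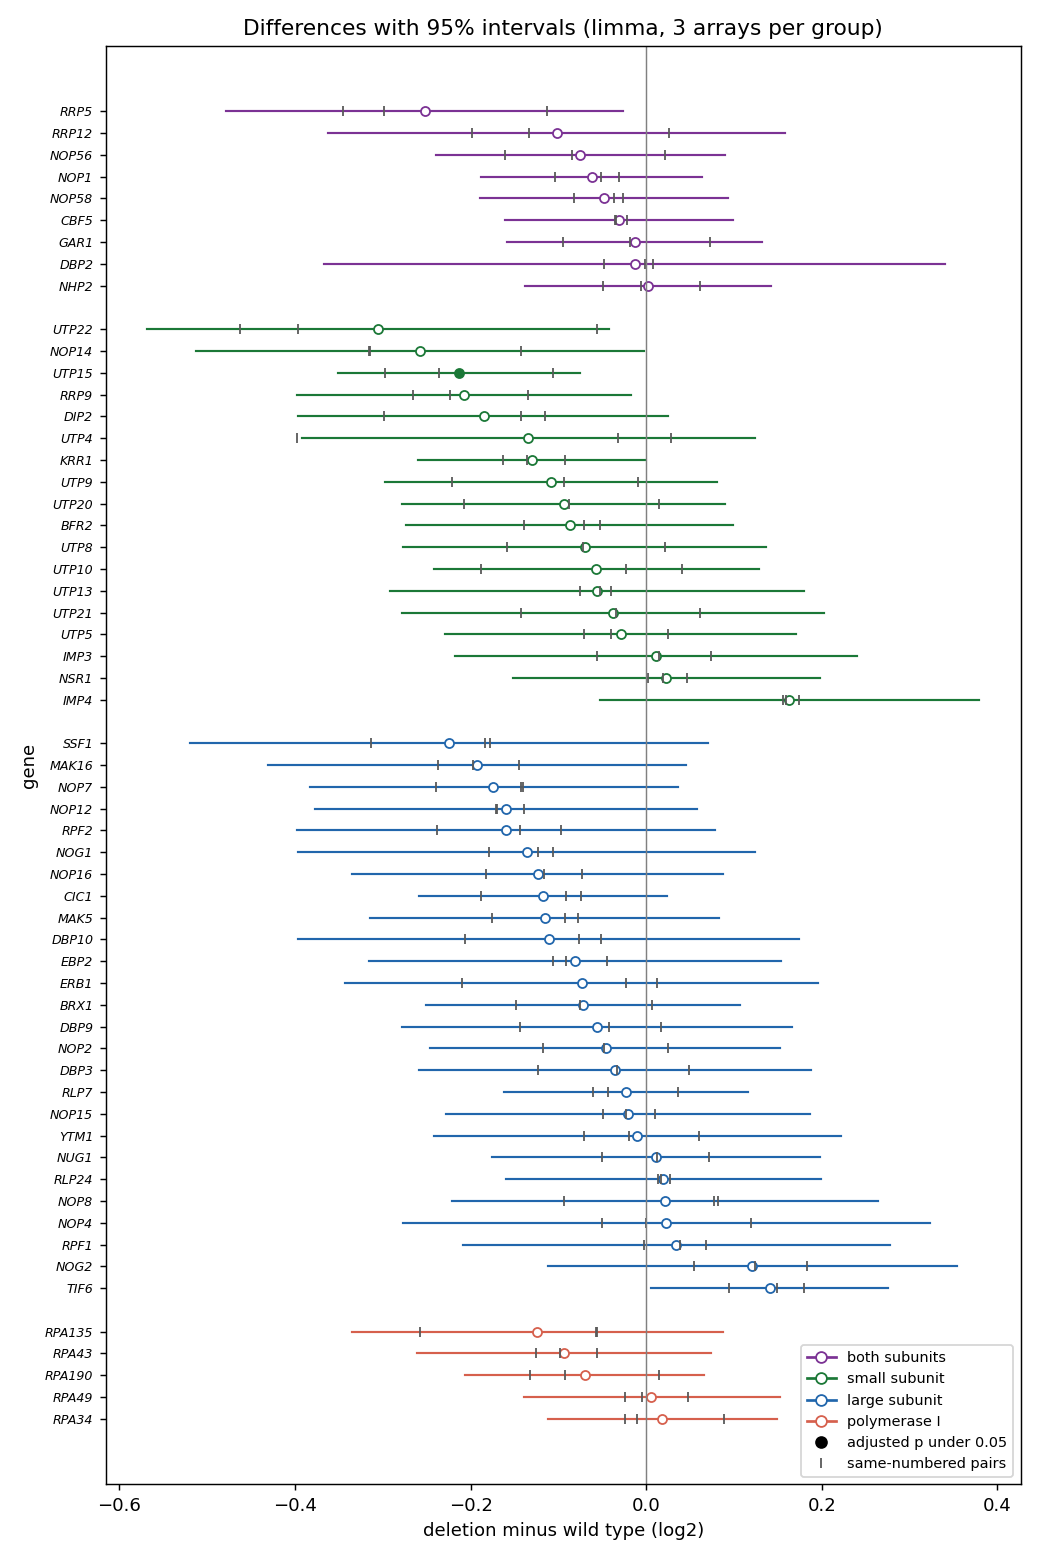
Difference between deletion and wild type (log2, horizontal axis) for each of the 58 genes (vertical axis), by role. Circles are the fitted differences, lines their 95% intervals, grey ticks the differences of the 3 same-numbered pairs of arrays, and a filled circle marks an adjusted p under 0.05. The circles run from -0.305 (UTP22) to 0.16 (IMP4), and only that of UTP15 is filled.

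The members varied in step from array to array. On replicate 1 of both strains nearly all of them were at their highest: 55 of 58 on wild-type replicate 1, 56 of 58 on deletion replicate 1, and 54 on both. Over all tested probe sets 29.9%, 35.2% and 15.8% were. Wild-type replicate 1 exceeded the mean of wild-type replicates 2 and 3 for 57 members, by a median of 0.18 (log2, 13.2%). Deletion replicate 1 exceeded the mean of deletion replicates 2 and 3 for all 58, by a median of 0.21 (15.7%). Over all tested probe sets these medians were -0.02 and -0.01.

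The exception on the wild-type side was NOP56, a scaffold of the box C/D particles. It read 12.97, 12.96 and 13.16 on the wild-type and 12.995, 12.87 and 13.00 on the deletion arrays. Values are given here and below in order of replicate number. Its highest array in both strains was therefore replicate 3. UTP4 and KRR1, small subunit factors, were also highest on wild-type replicate 3, and UTP15 on deletion replicate 3. The largest contrast of replicate 1 with the others in both strains was that of DBP2, an RNA helicase that acts in ribosomal RNA processing and in messenger RNA decay. It read 13.60, 13.23 and 13.22 on the wild-type arrays and 13.61, 13.18 and 13.22 on the deletion arrays, so that replicate 1 stood out by 0.38 and 0.41 while the strains differed by -0.01.

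Large subunit factors exceeded the other replicates on replicate 1 by medians of 0.21 (wild type) and 0.22 (deletion). For small subunit factors the medians were 0.18 and 0.22, for polymerase I subunits 0.15 and 0.13, and for the factors of both subunits 0.12 and 0.13. The same direction thus held in each role group. The spread within a strain was correspondingly wide: the median within-group SD was 0.13 for the members and 0.07 over all tested probe sets.

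**Figure D2:**
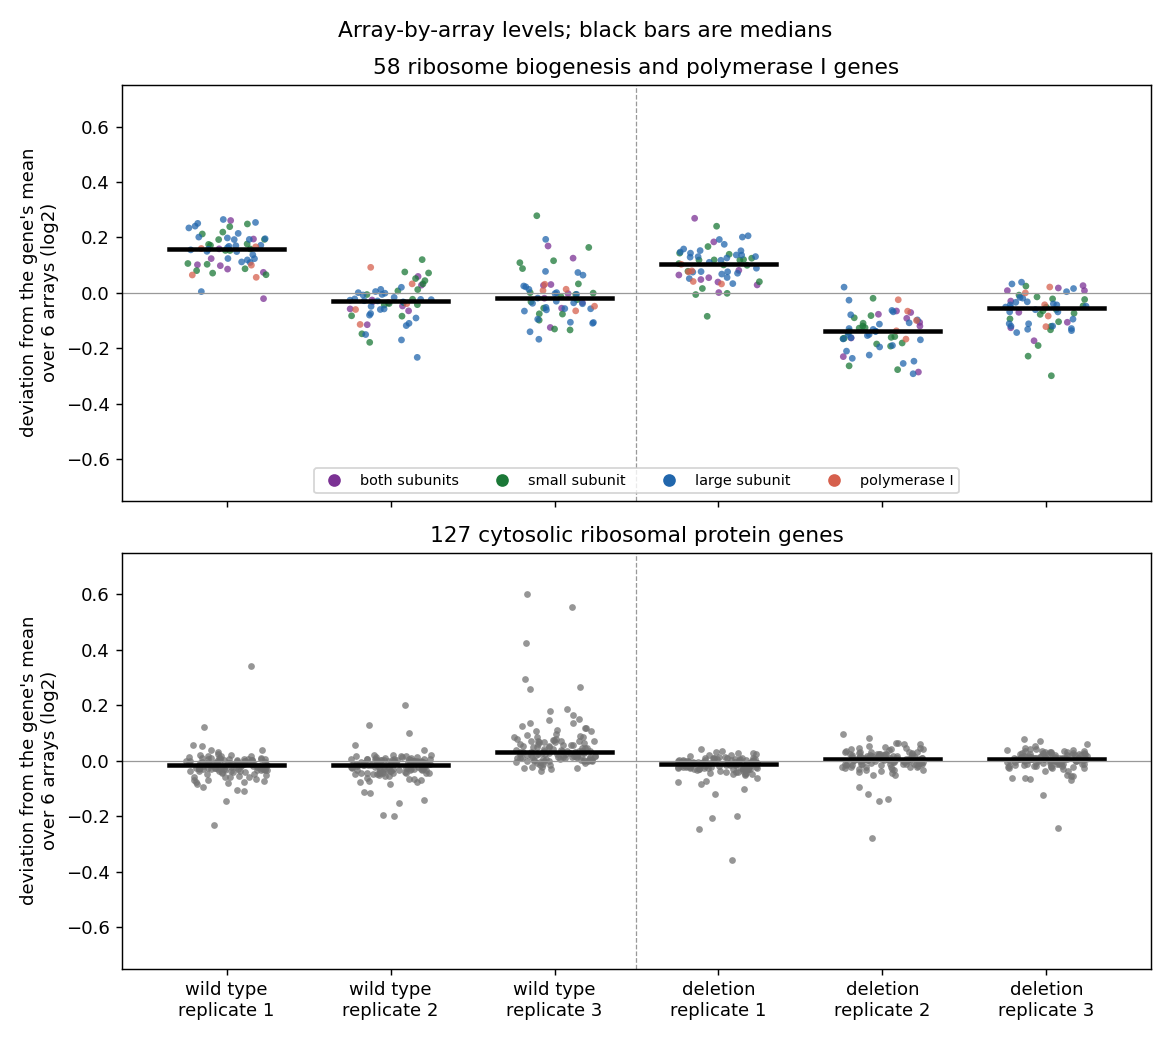
Deviation of each gene from its own mean over the 6 arrays (log2, vertical axis) on each array (horizontal axis), for the 58 genes coloured by role (top) and 127 cytosolic ribosomal protein genes (bottom). Black bars are medians. The 58 genes sit at medians of 0.16 and 0.10 on replicate 1 of wild type and deletion and between -0.14 and -0.02 on the others, while the medians of the ribosomal protein genes lie between -0.015 and 0.031.

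Cytosolic ribosomal protein genes, the gene set closest in function, were measured beside them. There 2 of the 127 were highest on replicate 1 of both strains, and replicate 1 differed from the other replicates by medians of -0.02 in each. They had a shared pattern of their own: 42 (33.1%) were highest on replicate 3 of both strains, against 14.4% of all tested probe sets, and 107 lay above their group mean on wild-type replicate 3. Their median within-group SD was 0.03, on probe sets whose median value, 14.28, was near the top of the array's range, where the brightest tested probe set averaged 15.13. Of these genes 3 fell, 0 rose and 124 did not pass, a share of 2.36% called against 25.6% of all tested probe sets. Their median difference was -0.001. The 3 were RPS9A at -0.51 (SE 0.06), RPL22B at -0.34 (SE 0.09) and RPS22B at -0.24 (SE 0.05), each with a close paralog with which it may share signal. In limma the adjusted p was 0.00169 for RPS9A, 0.0378 for RPL22B and 0.0202 for RPS22B. The call of RPL22B was lost on leaving out any array other than wild-type replicate 1 (adjusted p = 0.0507 to 0.111), and that of RPS22B on leaving out wild-type replicate 2 or 3 or deletion replicate 2 (0.0556 to 0.0776).

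**Figure D3:**
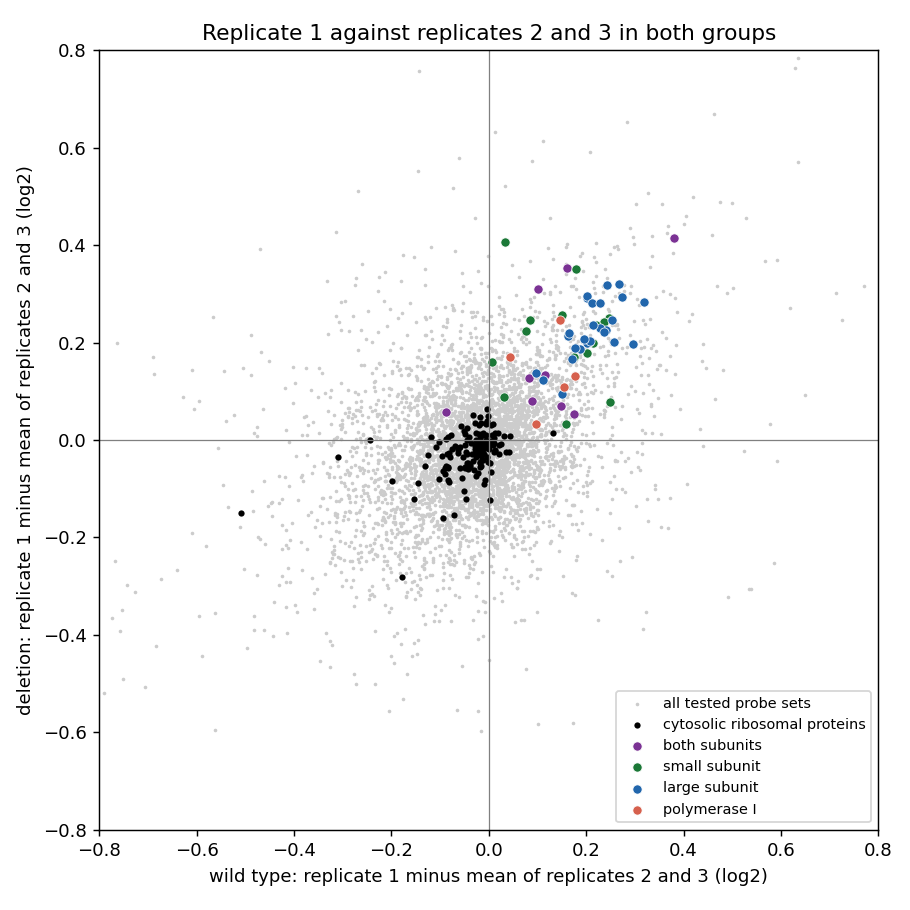
Replicate 1 minus the mean of replicates 2 and 3 (log2) in the wild type (horizontal axis) and in the deletion strain (vertical axis). Grey points are all tested probe sets, black points cytosolic ribosomal protein genes and coloured points the 58 genes by role; 27 probe sets lie beyond the drawn range of 0.8. Of the 58 genes, 57 lie above 0 on both axes, and the black points have medians of -0.02 on both.

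The labels do not say what arrays of the same number share. The 25S ribosomal RNA control gave log2 values of 12.8, 9.06 and 8.85 in the wild type and 9.07, 11.3 and 12.5 in the deletion strain, in order of replicate number. It was thus high on wild-type replicate 1 and low on deletion replicate 1. The hybridisation spikes had medians of 9.60 to 9.74 on the wild-type arrays and 9.69, 9.79 and 10.05 on the deletion arrays. The 3′ to 5′ difference of the ACT1 control was 0.34 to 0.40 on all 6 arrays. For the controls TDH1, SPT15 and RIP1 it was -0.07 to -0.03, 1.39 to 1.52 and -0.64 to -0.51. Leaving out the 3 arrays of high 25S signal (wild-type replicate 1, deletion replicates 2 and 3) sets deletion replicate 1 alone against wild-type replicates 2 and 3. All 58 members were above the mean of the other deletion arrays on that array, so the choice of arrays itself raises the members there. The setting thus mixes the contrast of replicate numbers with that of the strains. For the same reason it cannot show whether the members' values depend on the 25S signal. The median member difference was then 0.10, with NOG2, IMP4 and DBP2 called higher (3 members, where 8.13% of tested probe sets were) and 0 lower. DBP2 differed by 0.01 between replicate 1 of the deletion and replicate 1 of the wild type, so its call restates the contrast of replicate 1 with the others. Without deletion replicate 1 instead, 4 members were lower, namely NOP14, UTP22, RRP5 and DIP2 (6.9%, against 25.9% of tested probe sets), and the median was -0.135. What part the conditions behind the control signals have in the members' values was not tested.

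The replicate term of the blocked fit had an unadjusted p under 0.05 for 38 of the 58 members (65.5%), against 13.8% of all tested probe sets, and 0 members and 0.0% of tested probe sets had an adjusted p under 0.05 (limma). The 9 members called with the block were NOP14, RRP9, UTP15, RRP5, SSF1, MAK16, NOP7 and NOP12 on the lower side and IMP4 on the higher. Without the pair of replicates 2 the blocked fit passed 0 members (9.31% of tested probe sets), without the pair of replicates 3 it passed 1 (14.1%) and without that of replicates 1 it passed 4 (27.1%). The differences within pairs had medians of -0.04, -0.105 and -0.045 for replicates 1, 2 and 3. The deletion array was the lower one in all 3 pairs for 26 members and the higher one for 5, against 26.7% and 36.7% of tested probe sets.

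Among small subunit factors the median difference was -0.09, with 15 of 18 below 0. UTP15, a subunit of the UTP-A complex that binds the nascent ribosomal RNA precursor, read 12.10, 11.965 and 11.92 on the wild-type arrays and 11.805, 11.73 and 11.82 on the deletion arrays. All deletion arrays lay below all wild-type arrays. The fitted difference was -0.21 (SE 0.06, n = 3 per group, limma adjusted p = 0.0373, and 0.0360 with the block). The call was lost on leaving out any array other than wild-type replicate 3 (adjusted p = 0.0609 to 0.130). UTP4, UTP5, UTP8, UTP9 and UTP10, also of UTP-A, differed by -0.03 to -0.13 and did not pass in either fit. NAN1, a UTP-A gene outside the 58 that was picked after its values were seen, differed by -0.20 (limma adjusted p = 0.132, and 0.0492 with the block).

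UTP22, of the UTP-C complex, had the largest difference of the 58 genes. It read 11.74, 11.69 and 11.73 on the wild-type arrays and 11.69, 11.29 and 11.27 on the deletion arrays. The groups did not overlap, but deletion replicate 1 lay just under the lowest wild-type value, and the difference of -0.305 (SE 0.11) did not pass (adjusted p = 0.0863 in limma, 0.0581 with the block). Groups without overlap were found for 3 members, UTP15 and UTP22 on the lower side and TIF6 on the higher, against 18.1% and 26.7% of tested probe sets.

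NOP14, a core protein of the small subunit processome, read 11.98, 11.78 and 11.82 on the wild-type arrays and 11.84, 11.47 and 11.50 on the deletion arrays. The groups overlapped on deletion replicate 1 alone. Its difference of -0.26 (SE 0.11) did not pass (adjusted p = 0.125) and was called lower with the block (SE 0.05, adjusted p = 0.0227). RRP9, a protein specific to the U3 particle, read 12.21, 12.04 and 11.97 against 11.98, 11.78 and 11.84, and its difference of -0.21 moved in the same way from an adjusted p of 0.103 to 0.0263 in limma with the block.

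IMP4, which joins the U3 RNA to its target together with IMP3, went the other way. It read 11.77, 11.52 and 11.57 on the wild-type arrays and 11.94, 11.68 and 11.72 on the deletion arrays. In each same-numbered pair the deletion array was higher, by 0.17, 0.16 and 0.16. The difference of 0.16 did not pass without the block (SE 0.09, limma adjusted p = 0.232) and was called higher with it (SE 0.04, adjusted p = 0.0311). Its partner IMP3 differed by 0.01. The UTP-B members DIP2, UTP13 and UTP21 differed by -0.185, -0.06 and -0.04, KRR1 by -0.13, UTP20 by -0.09 and BFR2 by -0.09, and NSR1, the yeast nucleolin, by 0.02. None of these passed in either fit.

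**Figure D4:**
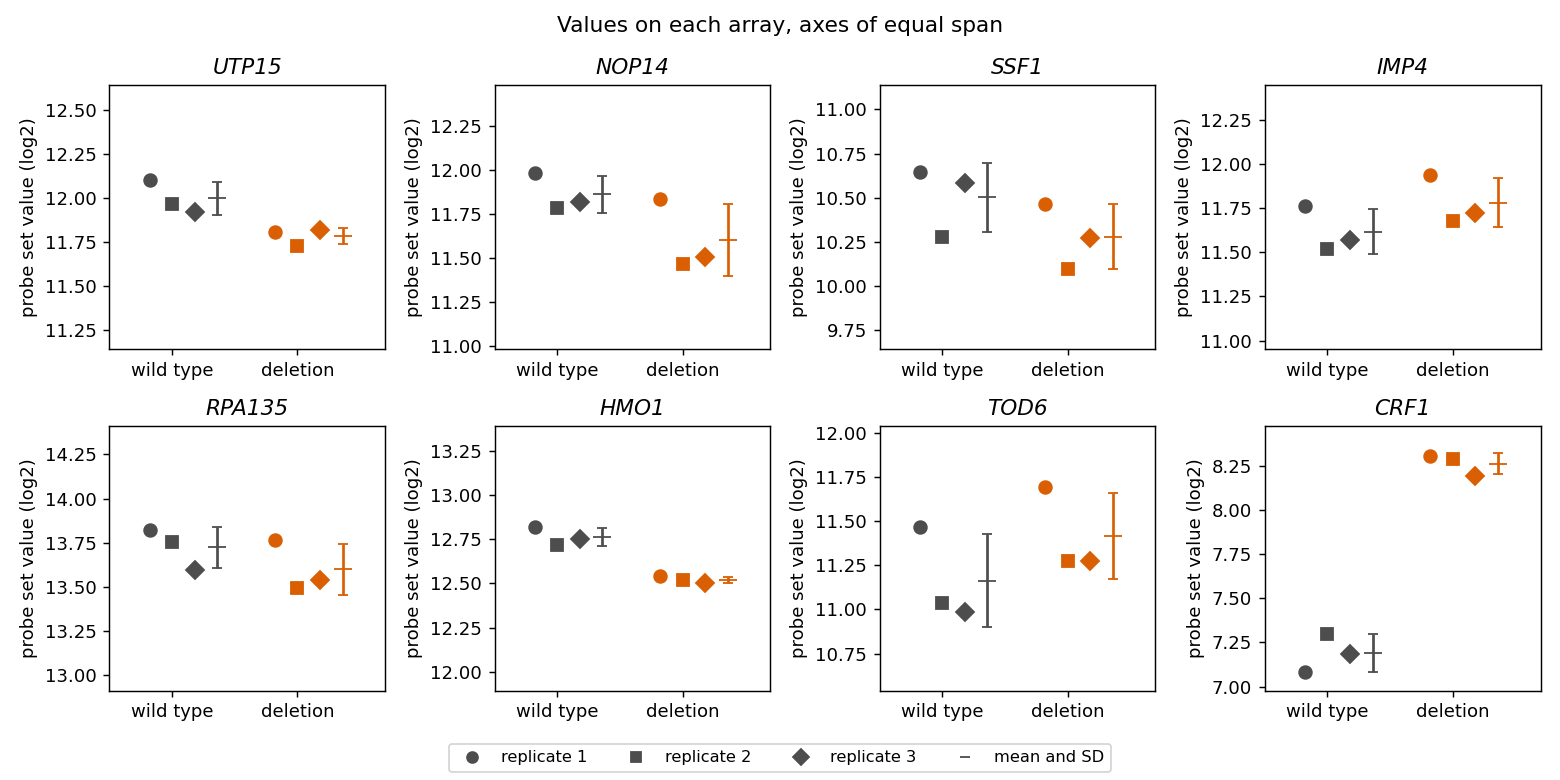
Probe set values (log2, vertical axis, equal span in each panel) of 8 genes on the 3 wild-type (grey) and 3 deletion (orange) arrays, with the marker shape giving the replicate number and the bars the mean and SD (n = 3). Replicate 1 is the highest array of both strains for NOP14, SSF1, IMP4, RPA135, HMO1 and TOD6. UTP15, HMO1 and CRF1 separate the strains without overlap.

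Large subunit factors had a median difference of -0.06, with 19 of 26 below 0 and none passing without the block. That median changed sign on leaving out wild-type replicate 1 (0.011) or deletion replicate 2 (0.005). SSF1, one of the Brix family of assembly proteins, read 10.64, 10.28 and 10.58 on the wild-type arrays and 10.465, 10.10 and 10.27 on the deletion arrays. The groups overlapped, and the difference of -0.225 did not pass (SE 0.12, limma adjusted p = 0.228, and called lower with the block at 0.0244). SSF1 has a near copy, SSF2, so signal within the pair is uncertain.

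MAK16 read 10.83, 10.57 and 10.59 against 10.63, 10.33 and 10.44, a difference of -0.19 (SE 0.10). NOP7, which forms a complex with ERB1 and YTM1, read 12.02, 11.82 and 11.90 against 11.88, 11.58 and 11.76, a difference of -0.17 (SE 0.09). Both overlapped between the groups and did not pass (limma adjusted p = 0.203 and 0.196), and both were called lower with the block (0.0255 and 0.0372). ERB1 and YTM1, the partners of NOP7, differed by -0.07 and -0.01. NOP12, an RNA-binding protein of pre-25S processing, read 12.19, 11.95 and 11.94 against 12.02, 11.78 and 11.80, and its difference of -0.16 was called lower with the block alone (adjusted p = 0.0339, against 0.245 in limma without it).

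TIF6, which keeps the large subunit from joining the small one too early, read 13.08, 13.01 and 12.94 on the wild-type arrays and 13.23, 13.10 and 13.12 on the deletion arrays. The groups did not overlap, by a narrow margin. Its difference of 0.14 (SE 0.06) did not pass (limma adjusted p = 0.116, and 0.0564 with the block). The assembly GTPases split, with NOG2 at 0.12, NUG1 at 0.01 and NOG1 at -0.14. The RNA helicases MAK5, DBP10, DBP9 and DBP3 differed by -0.115 to -0.04.

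Of the remaining large subunit factors, RPF2, of the 5S particle, differed by -0.16, NOP16 by -0.12 and CIC1 by -0.12. EBP2 and its partner BRX1 differed by -0.08 and -0.07, the methyltransferase NOP2 by -0.05, RLP7 by -0.02 and NOP15 by -0.02. RLP24, which resembles a ribosomal protein it is later exchanged for, differed by 0.02, NOP8 by 0.02, NOP4 by 0.02 and RPF1 by 0.03. None of these passed in either fit.

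The 9 factors of both subunits had a median difference of -0.05. RRP5, needed for the early cuts that lead to both subunits, read 12.97, 12.84 and 12.90 on the wild-type arrays and 12.86, 12.49 and 12.61 on the deletion arrays. Deletion replicate 1 lay within the wild-type range and the other deletion arrays below it. The difference of -0.25 (SE 0.10) did not pass (limma adjusted p = 0.0966) and was called lower with the block (SE 0.06, 0.0320). RRP12, an export factor, read 12.87, 12.68 and 12.74 against 12.90, 12.48 and 12.61 and differed by -0.10 (adjusted p = 0.535). The helicase DBP2 differed by -0.01. Among box C/D proteins NOP56, NOP1 and NOP58 differed by -0.075, -0.06 and -0.05, and among H/ACA proteins, which guide pseudouridine formation, CBF5, GAR1 and NHP2 differed by -0.03, -0.01 and 0.002.

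The polymerase I subunits differed by a median of -0.07, 3 below 0 and 2 above, and none passed in either fit. RPA190, the largest subunit, read 13.49, 13.46 and 13.43 on the wild-type arrays and 13.50, 13.325 and 13.34 on the deletion arrays. RPA135, the other subunit of the catalytic core, read 13.82, 13.75 and 13.59 against 13.76, 13.49 and 13.54. The groups overlapped for both core subunits, which differed by -0.07 (SE 0.06) and -0.12 (SE 0.09). RPA43, the subunit that meets the initiation factor Rrn3, read 12.24, 12.03 and 12.09 against 12.11, 11.94 and 12.03 and differed by -0.09 (SE 0.07). RPA49 and RPA34 form a heterodimer and differed between the strains by 0.01 (SE 0.06) and 0.02 (SE 0.05). RPA49 read 12.50 to 12.66 on the wild-type and 12.49 to 12.63 on the deletion arrays, and RPA34 read 12.85 to 13.02 and 12.94 to 13.00. The adjusted p-values of the 5 subunits in limma were 0.346 to 0.952.

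Other genes of the pathway were listed by textbook membership. Of 109 such genes 3 rose, 2 fell and 104 did not pass, a share of 4.59% against 25.6% of tested probe sets, with a median difference of -0.03. With the block 4 were called higher and 14 lower (16.5%, against 28.4%). On replicate 1 of both strains 85 of the 109 (78.0%) were at their highest. Among 49 further small subunit and particle proteins NOP19 rose by 0.37 (SE 0.08, limma adjusted p = 0.0147), from 11.03, 10.84 and 10.89 to 11.40, 11.16 and 11.32. Leaving out wild-type replicate 2 or 3, or deletion replicate 3, ended that call, at an adjusted p of 0.0518 to 0.0552. Of 42 further large subunit factors none passed (limma). SPB1, a methyltransferase, and SSF2 had the largest differences, at -0.35 (SE 0.17, adjusted p = 0.175) and -0.20 (SE 0.08, adjusted p = 0.115). SPB1 was called lower with the block (adjusted p = 0.0107).

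Of the 18 genes on the list of further polymerase I subunits and factors, 2 rose, 2 fell and 14 did not pass, a share of 22.2% near the 25.6% of all tested probe sets. HMO1, a high-mobility-group protein that coats active ribosomal DNA, read 12.82, 12.72 and 12.75 on the wild-type arrays and 12.54, 12.52 and 12.50 on the deletion arrays. It fell by 0.24 on the log2 scale without overlap between the groups (SE 0.04, limma adjusted p = 0.00746). RRN3, the initiation factor that binds the polymerase, read 11.03, 10.87 and 10.95 against 10.72, 10.76 and 10.67 and fell by 0.23 on the log2 scale (SE 0.05, adjusted p = 0.0199), which no longer passed on leaving out the third array of either strain (0.0557 for wild type, 0.0731 for deletion).

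RRN9 and RRN5, subunits of the upstream activating factor, rose by 0.22 (SE 0.04, limma adjusted p = 0.00867) and 0.19 (SE 0.05, adjusted p = 0.0413). RRN9 read 9.51 to 9.58 on the wild-type and 9.73 to 9.77 on the deletion arrays. RRN5 read 9.21 to 9.33 and 9.40 to 9.54, and its call was lost under 11 of 15 alternatives (adjusted p = 0.0586 to 0.529), among them leaving out any array other than deletion replicate 1. Of the 18 genes on this list, 2 did not overlap between the groups on the lower side and 5 on the higher (11.1% and 27.8%), against 18.1% and 26.7% of tested probe sets.

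Among 15 regulators of ribosome biogenesis genes 2 rose, 2 fell and 11 did not pass, a share of 26.7% against the background of 25.6%. CRF1, a corepressor of ribosomal protein genes under TORC1, read 7.08, 7.30 and 7.18 on the wild-type arrays and 8.31, 8.29 and 8.19 on the deletion arrays. It rose by 1.08 (SE 0.06, limma adjusted p = 8.8e-05) with no overlap. TOR1, a kinase of TORC1, read 10.35, 10.38 and 10.30 against 10.09, 9.98 and 9.98 and fell by 0.33 on the log2 scale (SE 0.05, adjusted p = 0.00372).

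MRS6, a Rab escort protein that binds Sfp1, rose by 0.19 (SE 0.04, limma adjusted p = 0.0155), which no longer passed on leaving out deletion replicate 2 (0.0725) or 3 (0.0541). DOT6, the repressor that binds promoters of ribosome biogenesis genes, read 12.25, 12.13 and 12.20 against 12.02, 12.04 and 11.98 and fell by 0.18 on the log2 scale (SE 0.05, adjusted p = 0.0279). That call held without wild-type replicate 2 alone of the 6 arrays and was lost without each of the others (adjusted p = 0.0507 to 0.0956). TOD6, the paralog of DOT6, was picked after its values were seen. It read 11.47, 11.04 and 10.98 on the wild-type arrays and 11.70, 11.27 and 11.28 on the deletion arrays, highest on replicate 1 of both strains as the members were. Its difference of 0.25 (SE 0.16) did not pass (adjusted p = 0.300) and was called higher with the block (SE 0.04, adjusted p = 0.0114). SFP1, STB3, SCH9, IFH1 and FHL1 did not pass in either fit, with differences of -0.18 to 0.03.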

How the data were processed

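The values analysed are the authors' deposited log2 probe set values from 6 arrays (3 wild type, 3 deletion). Per the submitters' processing notes, GCOS 1.1, GCRMA and limma were used, with no order of steps. GCRMA corrects for unspecific binding according to probe composition. Base 2 was inferred from the span of 3.51 to 15.13 of the mean values, since no source states it. Probe sets were named through the platform annotation and the R64 gene table: of 10928 probe sets, 7244 had 1 symbol, 1 several and 3683 none. Tested were 5498 probe sets of S. cerevisiae. Background was the 95th percentile of 1746 probe sets whose symbol the S. cerevisiae table lacks, taken as those of the array's other yeast. Scanner files were not used here, and no positions are printed, since the genome build behind the probes is unknown here. Columns outside the series numbered 0.

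Differences are deletion minus wild type, tested with limma 3.58.1 in R 4.3.3 (lmFit, eBayes, two-sided, no covariates, Benjamini-Hochberg over all 5498 probe sets, threshold 0.05), a script that was tested on simulated data. Every adjusted p comes from such a fit. Deviations of same-numbered arrays from their group means correlated at 0.351, 0.213 and 0.112 for replicates 1, 2 and 3. The block was kept by a rule of over 0.1 for every pair. Replicates 2 and 3 also correlated across numbers, at 0.183 (wild type 2, deletion 3) and 0.161 (wild type 3, deletion 2). With those 2 numbers swapped the rule would be met as well, so it does not establish that same-numbered arrays belong together. Blocked values stand beside results they change. The labels call the replicates biological and do not say whether the cultures were grown at different times.

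Named were all members that passed, the 3 largest differences of each role group, all 5 polymerase I subunits, the 2 highest and 2 lowest members by mean, members called with the block, and up to 4 passing genes of each other list (2 where none passed). All other members are named with their differences. Members, lists and alternatives were chosen with earlier results of these data known. Alternatives were another normalization, other filters and variance models, the block, the 25S signal and leaving out arrays. Figures were drawn with matplotlib 3.10.9.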

Additional observations from a re-analysis of the deposited data

How the results depend on the processing

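Without the block, leaving out single arrays gave 0 to 4 members called lower (4 without deletion replicate 1, namely NOP14, UTP22, RRP5 and DIP2, where 25.9% of tested probe sets passed), 1 to 6 other pathway genes called higher, 1 to 12 lower, 1 to 2 regulators higher, 1 to 3 lower, and 1 to 3 ribosomal protein genes lower. The members' median difference stayed at -0.135 to -0.012 in these fits, and that of the large subunit factors at -0.131 to 0.011. Testing all 10928 probe sets left 0 members, 1 other pathway gene, 1 regulator and 1 ribosomal protein gene lower and 1 regulator higher. With a trended, robust variance 4 other pathway genes were lower and 1 ribosomal protein gene was higher. The replicate block gave 8 members lower and 1 higher, and 14 other pathway genes lower; it left the counts of regulators and ribosomal protein genes within 1.5 times of those without it. With alternatives chosen after seeing the data, the block gave 14 members lower under median centring and 8 lower and 2 higher under quantile normalization. With trended, robust variance it gave 15 lower and 3 higher. The share of all tested probe sets was not counted for these fits, so the members' counts there have no background beside them. Without pair 1 the block gave 4 members lower, with 6 other pathway genes higher and 11 lower. Without pair 2 it gave 0 members lower, with 1 other pathway gene higher and 0 lower and 1 regulator higher and 0 lower. Without pair 3 it gave 1 other pathway gene lower and 1 regulator in each direction. Of all tested probe sets 27.1% passed without pair 1, 9.31% without pair 2 and 14.1% without pair 3. Leaving out the 3 arrays of high 25S signal keeps deletion replicate 1 as the only deletion array, assumed to vary as the wild type does, against wild-type replicates 2 and 3. Since members were highest on replicate 1 of both strains, this setting contrasts replicate numbers as well as strains. It cannot show whether the members' values depend on the 25S signal. It gave a median member difference of 0.10. With the 25S signal as a covariate the median of the members was -0.06 and UTP15 was the member called. The number of arrays, 3 per group, limits all counts.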

Other observations

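The 58 genes lie on 14 of the 16 chromosomes of the reference table, and 2 pairs of them are neighbours. RPF1 lies next to GAR1, and their differences between the strains were 0.03 and -0.01. RPA43 lies next to RPA190, another polymerase I subunit, at -0.09 and -0.07. On replicate 1, RPF1 and GAR1 exceeded the mean of the other wild-type arrays by 0.26 and 0.18 and that of the other deletion arrays by 0.20 and 0.05, and RPA43 and RPA190 did so by 0.18 and 0.04 and by 0.13 and 0.17.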
